A study of Mus musculus with 12 samples.

Results

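The genes described here are 32 members of the NF-kB pathway and its inflammatory targets, chosen by name and followed through every probe set annotated to a single member. A probe set was found for 31 of the 32 members, out of 20262 genes with such a probe set on either array design. The macrophage and liver array measured 30 members with 31 probe sets, the aorta array measured 30 with 47 probe sets, and 29 were measured on both. Selp was measured only in aorta and Irak3 only in macrophages and liver, and Nfkb1 was not analysed here.

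The study set mice without Apoe and Prkch, which encodes the eta isoform of protein kinase C (Prkch-/-Apoe-/-, called the knockout) against Apoe-/- mice (the control), all on a C57BL/6J background, on 12 Affymetrix arrays. All groups therefore lacked apolipoprotein E, and no group was wild type at both genes. Peritoneal macrophages were elicited with thioglycolate in females on a regular diet and received no stimulation, with 3 arrays per genotype from mice aged 18, 17 and 27 weeks (replicates 1, 2 and 3 of each genotype). Livers came from males of 20 weeks that had eaten a high-fat diet for 12 weeks and were re-fed, and each genotype had 2 liver arrays. For aorta, RNA of 4 fed males of 20 weeks, after 12 weeks of the same diet, was pooled and run on 1 array for each genotype. The labels name the macrophage and liver arrays biological replicates, and they do not say which part of Prkch was removed or in which cells.

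NF-kB is a family of dimeric transcription factors, formed among others by Rela, Relb, Rel and Nfkb2, that inhibitory proteins such as Nfkbia hold in the cytoplasm. Signals from Toll-like, interleukin 1 and tumour necrosis factor receptors lead to the phosphorylation and loss of these inhibitors, and the freed dimers enter the nucleus and bind kB sites of their target genes. The targets include cytokines, leukocyte adhesion molecules of the endothelium, and the pathway's own inhibitors, so that Nfkbia and Tnfaip3 are often read as signs of recent NF-kB activity.

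The promoters of the members were read from the RefSeq table of GRCm38.p6 to show which carry a kB site close to the start. Of the 26 members found in the table, 9 held a match to the kB consensus of NF-kB on either strand in the 250 bases before a start site, which is 34.6% of them, against 2225 of 27025 genes of the table (8.23%). By role, 4 of 8 inhibitors and feedback genes, 2 of 3 subunits, 1 of 6 cytokines, 1 of 2 receptors and adaptors, 1 of 4 effectors and 0 of 3 adhesion molecules held a match. Vcam1 had no entry in the table and was not scanned. Sites outside these 250 bases or off the consensus were not looked for, so a gene without a match may still have a kB site. Nfkbia and Tnfaip3 are shown because they were among the 4 members with the smallest p-values in liver and held a match. Of those 4, Icam1 was scanned and held no match, and Vcam1 was not scanned. Tlr2 is shown because it had the widest spread in macrophages, and it too held a match. Capitals mark the kB matches, which in Tlr2 are a pair of overlapping matches, and each sequence runs 5′ to 3′ on the minus strand up to the base before the start (Nfkbia chr12:55492648-55492897, Tnfaip3 chr10:19015411-19015660, Tlr2 chr3:83841609-83841858).
Nfkbia: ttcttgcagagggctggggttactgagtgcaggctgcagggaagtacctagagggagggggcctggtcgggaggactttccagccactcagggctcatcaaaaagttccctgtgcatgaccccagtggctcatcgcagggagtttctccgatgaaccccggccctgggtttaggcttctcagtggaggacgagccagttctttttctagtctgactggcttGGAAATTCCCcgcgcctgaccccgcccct
Tnfaip3: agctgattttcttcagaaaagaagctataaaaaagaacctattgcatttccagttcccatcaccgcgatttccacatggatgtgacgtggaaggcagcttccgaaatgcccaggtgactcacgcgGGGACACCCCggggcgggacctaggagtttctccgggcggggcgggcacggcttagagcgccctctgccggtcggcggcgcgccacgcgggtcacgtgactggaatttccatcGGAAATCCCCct
Tlr2: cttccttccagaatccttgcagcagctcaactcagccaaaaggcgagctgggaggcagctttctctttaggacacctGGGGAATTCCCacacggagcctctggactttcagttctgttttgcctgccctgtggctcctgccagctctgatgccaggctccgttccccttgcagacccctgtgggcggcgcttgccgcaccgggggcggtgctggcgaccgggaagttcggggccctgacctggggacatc
A match is a description of these letters, and binding was not measured.

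The tissues differed widely in their levels of the members. On the log2 scale and relative to each array's median, 22 of the 30 members were higher on every macrophage array than on any liver array, among them Irak3, an inhibitor of Toll-like receptor signalling in myeloid cells, with a mean of 3.14 in macrophages and 0.54 in liver. Tnfaip3, which encodes the ubiquitin-editing inhibitor A20, had means of 2.99 and 0.73. Vcam1, the ligand of integrin alpha4 on leukocytes, had the opposite order, with -0.30 in macrophages and 2.91 in liver. Sele, the endothelial E-selectin, and Bcl3, a nuclear IkB protein, were the other members that were higher on every liver array. For Bcl3 the separation was narrow, with 1.795 on the highest macrophage array and 1.803 on the lowest liver array (means 1.71 and 1.90). Il1b, Il6, Nfkbib, Socs3 and Icam1 overlapped between the tissues. These levels also differ in sex, age and diet between the tissues.

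Array medians were 6.57 to 6.77 in macrophages and 5.88 to 5.93 in liver (log2), and the medians of the aorta arrays were 27.8 and 30.1 (signal). The brighter Prkch probe set read 9.31 to 9.94 in control and 8.79 to 9.36 in knockout macrophages (log2), with overlap. In liver it read 6.57 to 6.87 in control and 5.65 to 5.93 in knockout. Prkch itself did not pass in limma with Benjamini-Hochberg adjustment (adjusted p 0.99989 in macrophages and 0.573 in liver). The dimmer probe set read 6.85 to 7.14 against 6.62 to 6.85 in macrophages, and 4.04 to 4.08 against 3.94 to 4.21 in liver. The aorta probe set read 17.2 in control and 9.94 in knockout, below the aorta filter of 32.6. Where on Prkch these probe sets lie relative to the deletion is not known here. In macrophages, 56.5% of the variance lay on a first principal component, where knockout replicate 2 scored 36.8 and the remaining arrays scored from -18.8 to 3.40. The macrophage arrays also fell into 2 sets by values that were identical to the last digit, and the labels name no batch. Control replicates 1 and 2 and knockout replicate 1 shared 53 to 69 identical values per pair, and control replicate 3 and knockout replicates 2 and 3 shared 16075 to 18000, against 0 to 3 between the sets. In liver the first component held 48.3% of the variance, with knockout replicate 1 at 23.6 and the remaining arrays from -9.70 to -5.59. Macrophage differences below are also given without knockout replicate 2 for members that stood high or low on that array, with the values within both sets for several that changed direction between them.

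In liver, most of the measured members read lower in the knockout, but none passed the test. Of the 27 members above the filter on dim genes, 22 were lower and 5 higher, which puts 81.5% below control, where 57.2% of all 15942 genes tested lay below it and 42.8% above. The median difference, knockout minus control, was -0.17 (log2) over the members and -0.02 over all genes. No member had an adjusted p under 0.05 in limma with Benjamini-Hochberg adjustment, and 0.00627% of all genes did (1 gene). At an unadjusted p under 0.05 there were 4 members of 27, where 4.29% of all genes passed that threshold. In 8 members both knockout arrays lay below both control arrays, a pattern found in 18.0% of all genes. On the probe sets tested, no member had both above, against 11.8% of all genes. Outside the test, Il12b and the dimmer probe set of Socs3, given below, had both knockout arrays above both controls.

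The adhesion molecules read lowest of the role groups, with a median difference of -0.50 over 3 members. Vcam1 (probe set 10501608) read 8.96 and 9.33 in the control and 8.27 and 8.69 in the knockout. Both knockout arrays were below both controls. The difference was -0.66 (SE 0.19, 95% interval -1.09 to -0.22, n = 2 per genotype), or 63.4% of the control level. Its unadjusted p was 0.00806 and its adjusted p 0.989 in limma with Benjamini-Hochberg adjustment, and over the alternative settings the adjusted p ran from 0.118 to 1.00.

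Icam1 (probe set 10583519), the ligand of the leukocyte integrins of the beta2 family, read 7.78 and 8.23 in the control and 7.37 and 7.64 in the knockout. The groups did not overlap. Its difference was -0.50 (SE 0.18, 95% interval -0.92 to -0.09), or 70.6% of control, with an unadjusted p of 0.0236 and an adjusted p of 1.00 in limma (0.336 to 1.00 over the alternatives). Sele read 5.99 and 6.68 in the control against 5.902 and 6.31 in the knockout, so that its genotypes overlapped.

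Of the inhibitors and feedback genes, 8 of 9 read lower in the knockout liver, with a median difference of -0.20. Tnfaip3 (probe set 10368144) read 6.69 and 7.17 in the control and 6.10 and 6.58 in the knockout. The higher knockout array lay under the lower control. The difference was -0.59 (SE 0.21, 95% interval -1.08 to -0.10), or 66.4% of control, with an unadjusted p of 0.0238 and an adjusted p of 1.00 in limma (0.169 to 1.00 over the alternatives).

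Nfkbia (probe set 10400405), the IkB alpha that retains NF-kB dimers and is itself among their targets, read 8.53 and 8.99 in the control and 8.26 and 8.36 in the knockout. The knockout arrays lay close together below both controls. The difference was -0.45 (SE 0.17, 95% interval -0.85 to -0.06), or 73.1% of control, with an unadjusted p of 0.0303 and an adjusted p of 1.00 in limma (0.481 to 1.00 over the alternatives). Nfkbie, another IkB protein, read 6.32 and 6.64 in the control against 6.29 and 6.17 in the knockout. Irak3 read 6.53 and 6.48 against 6.33 and 6.45. Neither of these overlapped between genotypes, and the gap was under 0.05 in both. The other inhibitors overlapped, among them Nfkbiz, a nuclear IkB protein, at 6.52 and 6.83 against 6.58 and 6.37. On the brightest probe set of each gene, Bcl3 was the inhibitor that read higher in the knockout, by 0.07 (SE 0.13). Socs3 differed by -0.10 (SE 0.15) on its brighter probe set, with overlap. Its dimmer, untested probe set read 5.84 and 5.44 in the control and 6.05 and 5.87 in the knockout. There both knockout arrays lay above both controls, a difference of 0.32.

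Among the subunits the differences were small and split, with 2 higher and 2 lower. Nfkb2, the precursor p100 of the noncanonical pathway, read 7.05 and 7.28 in the control and 6.92 and 6.95 in the knockout, without overlap, a difference of -0.23 (SE 0.14). Relb, its partner in that pathway, read 5.896 and 6.04 against 6.01 and 6.21, with overlap. The difference of Rela, the subunit with the main activating domain, was -0.02 (SE 0.16).

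The cytokines were also split, 2 higher and 2 lower, and all 4 tested overlapped between genotypes. Il1rn, which encodes the interleukin 1 receptor antagonist, read 6.55 and 7.14 in the control liver and 6.34 and 6.59 in the knockout, a difference of -0.38 (SE 0.20). Tnf read 6.04 and 6.27 against 6.12 and 5.84. The agonists Il1a and Il1b differed by 0.11 (SE 0.15) and 0.02 (SE 0.14). Il6 and Il12b lay below the filter in liver, as did Traf1. Il12b, which encodes the p40 subunit of interleukin 12, read 4.51 and 4.77 in the control and 4.90 and 4.85 in the knockout, without overlap and untested.

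All 4 receptors and adaptors read lower in the knockout liver, with a median of -0.13, and so did all 3 effectors tested, with a median of -0.12. Tlr2, a receptor for bacterial lipoproteins, read 7.29 and 7.34 in the control and 7.08 and 7.21 in the knockout, without overlap. Tlr4, the lipopolysaccharide receptor, read 6.33 and 6.64 against 6.04 and 6.58, with overlap. Nlrp3, an inflammasome sensor, read 5.37 and 5.20 in the control and 5.0006 and 5.28 in the knockout, a difference of -0.15 (SE 0.15). Birc3, an inhibitor of apoptosis, read 7.70 and 7.56 against 7.60 and 7.42, a difference of -0.12 (SE 0.14). Both overlapped between genotypes.

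**Figure D1:**
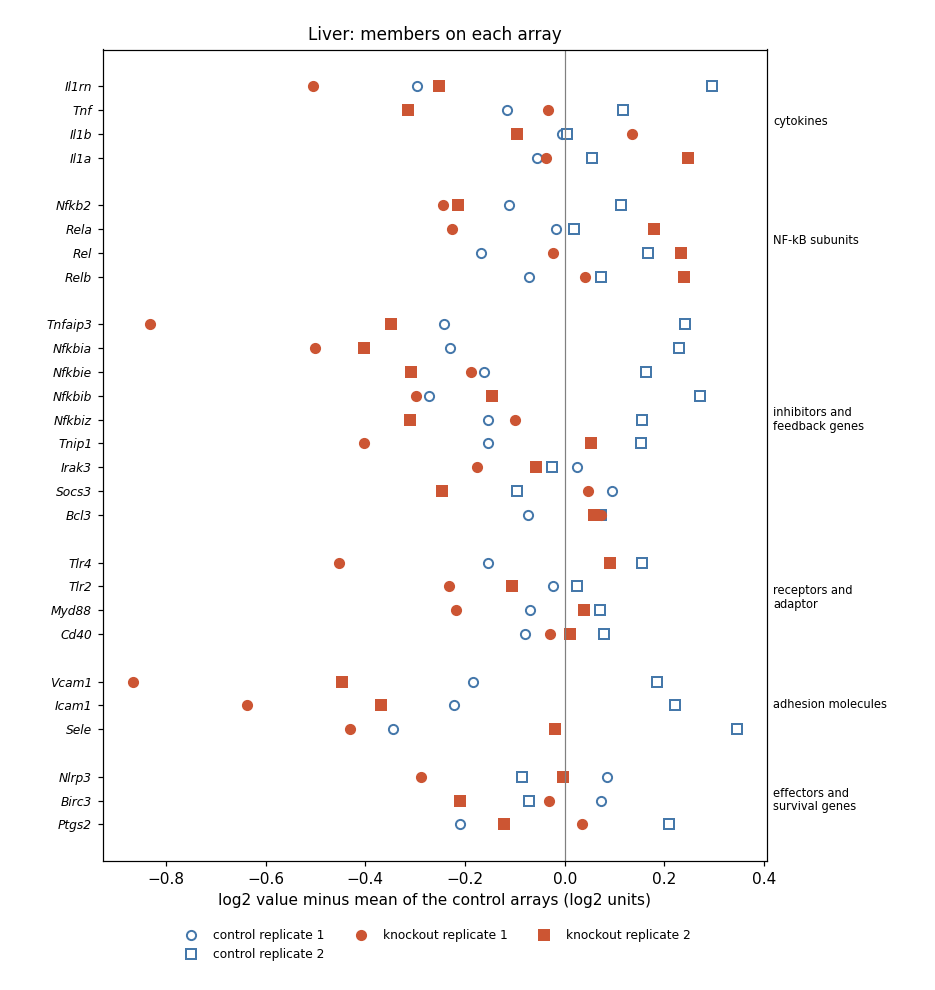
Each row is a member tested in liver, grouped by role. The x axis is the log2 value of each array minus the mean of the control arrays, with open symbols for the 2 control and filled symbols for the 2 knockout arrays. Control replicate 2 lies farthest right in 18 of the 27 members and knockout replicate 1 farthest left in 15.

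The liver counts depended on single arrays. Control replicate 2 was the highest of the 4 arrays in 18 of 27 members (66.7%, against 22.4% of all genes), and knockout replicate 1 was the lowest in 15 (55.6%, against 35.3%). Without control replicate 2, 18 members were lower, the median difference was -0.05 and 0 members had an unadjusted p under 0.05. Without knockout replicate 1, 18 were lower, the median was -0.11 and again 0 passed. In these fits 2.98% and 4.59% of all genes passed that threshold. Leaving out control replicate 1 gave 24 lower with a median of -0.25 and 7 passing, and leaving out knockout replicate 2 gave 22 lower with a median of -0.22 and 5 passing, where 3.04% and 9.90% of all genes passed. Of all genes, 57.2%, 53.3%, 54.1% and 56.5% read lower in these fits, in the order given. In each of these fits the lone array was taken to vary like the pair of the other genotype.

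Markers of several cell types of the liver differed beside these values. Of the macrophage markers, 5 of 6 read lower in the knockout, and their summed linear level was 4184 to 5551 in the control and 3179 to 3709 in the knockout. The Kupffer cell markers were lower in 4 of 4, at 4848 to 6099 against 3107 to 4489, and the endothelial markers in 5 of 5, at 1258.54 to 1339 against 1114 to 1289. All of these markers passed the filter. The hepatocyte markers summed to 63646 to 65417 in the control and 64095 to 65788 in the knockout, and all 4 with a probe set passed the filter. The dendritic cell markers were lower in 4 of 4 (302.52 to 303 against 247 to 278), the fibroblast markers in 3 of 4 (3310 to 3619 against 2561 to 3362) and the T cell markers in 3 of 3 (113 to 148 against 108 to 113, Cd3d below the filter). The mesothelial markers were higher in 4 of 4, at 215 to 220.2 against 232 to 275. The neutrophil markers summed to 149 to 169 and 132 to 174, and the platelet markers to 218 to 239.8 and 191 to 298. The part of these cells in the members' values was not tested, and in such bulk tissue fewer cells of a type and less RNA per cell cannot be told apart.

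In macrophages, the split of the members into higher and lower depended on single arrays and on the scaling. Of the 29 above the filter (all on the array but Il6), 16 read higher and 13 lower in the knockout, where 36.5% of the 15039 genes tested read higher and 63.5% lower, and the median difference was 0.01, against -0.04 over all genes. The split was 21 higher to 8 lower with quantile normalization (47.0% of all genes higher) and 22 to 7 without control replicate 1 (44.5% higher). No member passed in limma with Benjamini-Hochberg adjustment, where 0.0% of all genes did. At an unadjusted p under 0.05 there were 0 members, against 0.698% of all genes, and in 0 members did the genotypes lie apart, where 0.652% of all genes lay wholly higher and 1.6% wholly lower. The smallest unadjusted p was 0.0809, for Vcam1. It read 6.58, 6.43 and 6.49 in the control and 6.43, 5.99 and 6.29 in the knockout, a difference of -0.26 (SE 0.13, 95% interval -0.57 to 0.04) with an adjusted p of 1.00 in limma. Without knockout replicate 2 the difference of Vcam1 was -0.14, and it was -0.07 and -0.35 within the sets of arrays that share identical values.

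The members spread most on knockout replicate 2. That array was the highest of the 6 in 11 of 29 members (37.9%), where it was the highest in 12.3% of all genes, and the lowest in 5 (17.2%), against 21.8% of all genes. The SD of its differences from the control mean was 0.64 over the members and 0.36 over all genes, and on the other 5 arrays it was 0.11 to 0.17 over the members.

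Receptors and inhibitors were among the highest on that array. Tlr2 read 10.36, 9.40 and 9.77 in the control and 9.53, 11.47 and 9.99 in the knockout. Knockout replicate 2 lay above every other array and knockout replicates 1 and 3 lay within the control range. The difference of 0.49 (SE 0.51) became -0.08 without replicate 2, and it was -0.35 in the set of knockout replicate 1 and 0.96 in the set of knockout replicates 2 and 3. Nfkbiz read 8.07, 7.86 and 7.68 in the control and 7.80, 9.20 and 7.89 in the knockout, and Nfkbia read 10.23, 9.91 and 10.15 against 9.95, 11.08 and 10.09. Both showed the same single high array, and their differences of 0.43 (SE 0.37) and 0.27 (SE 0.29) became -0.02 and -0.08 without it. Within the same sets Nfkbiz differed by -0.16 and 0.86, and Nfkbia by -0.13 and 0.43.

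Irak3 read 9.82, 9.82 and 9.50 in the control and 9.77, 10.28 and 9.70 in the knockout. Its difference was 0.20 (SE 0.18), and 0.02 without replicate 2 (-0.05 and 0.49 within the sets). Tnfaip3, which had been lower in the knockout liver arrays, read 9.86, 9.59 and 9.44 in the control and 9.91, 9.55 and 9.59 in the knockout macrophages, where knockout replicate 2 was not high. Its difference was 0.05 (SE 0.15), and 0.12 without that array. Tlr4 read 9.38, 9.72 and 9.63 against 9.43, 9.86 and 9.63, with overlap.

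The cytokines split on knockout replicate 2. Il1b, the processed ligand of the interleukin 1 receptor, read 7.12, 7.24 and 6.90 in the control and 6.85, 8.49 and 6.96 in the knockout. Its receptor antagonist Il1rn read 10.25, 10.28 and 10.21 in the control and 10.37, 8.89 and 10.55 in the knockout. The agonist was thus highest and the antagonist lowest on that array, and on knockout replicates 1 and 3 the antagonist lay above all 3 controls. Without replicate 2 the difference of Il1b went from 0.35 (SE 0.43) to -0.18, and that of Il1rn from -0.31 (SE 0.41) to 0.21. In the set of knockout replicate 1 they were -0.33 and 0.10, and in that of knockout replicates 2 and 3 they were 0.83 and -0.49.

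Tnf, named after its values were seen, read 9.31, 8.59 and 9.02 in the control and 9.17, 8.04 and 9.39 in the knockout. Its lowest value was again on knockout replicate 2, and its difference went from -0.10 (SE 0.37) to 0.31 without that array, with 0.22 and -0.31 within the sets. Il1a read 8.995, 9.18 and 8.94 in the control and 8.62, 9.04 and 9.04 in the knockout, with overlap, and differed by -0.47 and 0.10 within the sets.

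The other roles showed small differences or the same high array. Rel, the subunit c-Rel of immune cells, read 10.34, 10.11 and 10.11 in the control and 10.19, 10.57 and 10.25 in the knockout, a difference of 0.15 (SE 0.13), or 0.03 without replicate 2. Relb read 8.52, 8.14 and 8.08 against 8.34, 8.08 and 8.08. Birc3 read 8.84, 8.71 and 8.62 in the control and 8.74, 9.53 and 8.65 in the knockout. Rel and Birc3 were highest on knockout replicate 2, and Relb was not. Nlrp3 read 7.79, 7.08 and 7.43 against 7.42, 8.001 and 7.43, with replicate 2 high once more. Without that array Birc3 differed by -0.03 and Nlrp3 by -0.0065, and within the sets by -0.04 and 0.47 (Birc3) and -0.01 and 0.28 (Nlrp3). Sele, dim in these cells, read 6.14, 6.43 and 6.07 in the control and 6.16, 6.07 and 6.07 in the knockout.

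**Figure D2:**
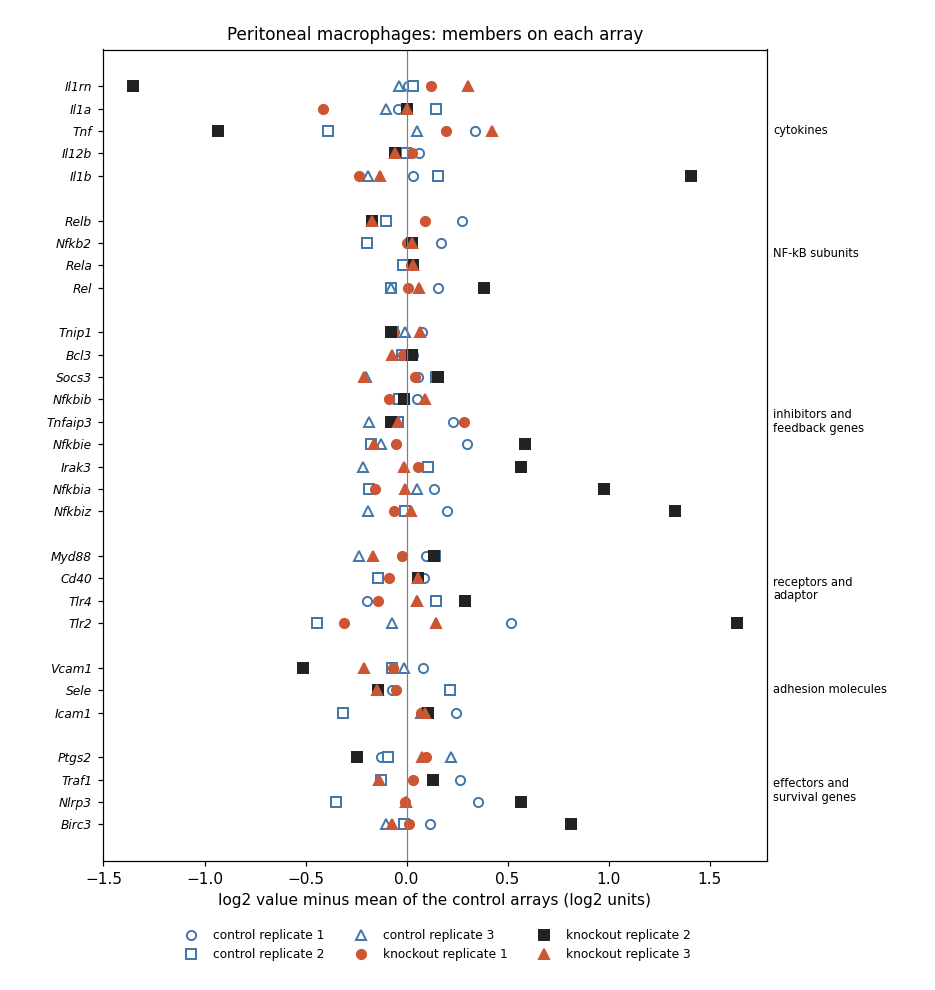
Each row is a member tested in macrophages, grouped by role. The x axis is the log2 value of each array minus the mean of the 3 control arrays, with open symbols for control arrays, filled symbols for knockout arrays and black squares for knockout replicate 2. The black squares are highest in 11 of 29 members and lowest in 5, and the SD of the members' differences on the other 5 arrays is 0.11 to 0.17.

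Without knockout replicate 2, 11 members read higher and 18 lower in the knockout, with a median of -0.02, where 47.0% of all genes were higher and 53.0% lower (median -0.01). The set of control replicates 1 and 2 with knockout replicate 1 gave 8 higher and 21 lower (median -0.05), where 57.4% of all genes were higher and 42.6% lower (median 0.03), and the set of control replicate 3 with knockout replicates 2 and 3 gave 18 higher and 6 lower (median 0.10), where 26.9% of all genes were higher and 31.9% lower. The remaining 5 members had identical values on all 3 arrays of the latter set (Rela, Relb, Nfkb2, Cd40 and Il12b), which is 17.2% of the members and compares with 41.2% of all genes. Nfkbib, Tlr4, Il1a, Nlrp3, Traf1 and Sele had identical values on 2 of them. Together 11 of 29 members (37.9%) had identical values in that set, against 66.1% of all genes. With the sets as a block, 18 were higher and 11 lower with a median of 0.02, where 56.3% of all genes were higher and their median was 0.01, and 0 members passed in limma.

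Markers of several cell types stood apart on knockout replicate 2 as well. The summed level of the B cell markers (3 of 4 with a probe set, all past the filter) was 4.68 times the mean of the other 5 arrays there, with 481 to 1251 in the control and 449 to 3211 in the knockout. The ratio was 2.50 for mast cell markers, and 1.63 for T cell markers. It was 0.33 for fibroblast markers, with all 4 lowest on that array. For dendritic cell markers it was 0.41, which rested on Itgax (8.28, against 10.34 to 10.87 on the other arrays), while Ccr7 was highest there (7.99, against 7.01 to 7.66). The neutrophil markers (Ly6g below the filter) summed to 783 on that array and to 1069 on control replicate 2. The ratio was 1.06 for macrophage markers, at 42840 to 45815 in the control and 44043 to 47122 in the knockout. The part of these cells in the members' values was not tested.

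The genotype difference in macrophages was then set against that in liver for the 29 members tested in either. The comparison asks whether a member's difference depends on the setting, and the settings differ in tissue, sex, age and diet together. In limma with Benjamini-Hochberg adjustment 0 members passed, against 0.0% of all genes, and 25 of 29 contrasts, macrophage difference minus liver difference, were above 0 with a median of 0.20, where 47.3% of all genes were above 0 with a median of -0.01. At an unadjusted p under 0.05 there were 2 members, where 2.11% of all genes passed. Icam1 differed by 0.09 (SE 0.15) in macrophages and -0.50 in liver, a contrast of 0.59 (SE 0.25, 95% interval 0.03 to 1.16, unadjusted p 0.0420, adjusted p 1.00 in limma). Icam1 in macrophages read 9.16, 8.60 and 8.99 in the control and 8.99, 9.02 and 9.01 in the knockout, with overlap. The contrast of Tnfaip3 was 0.64 (SE 0.29, 95% interval 0.01 to 1.28, unadjusted p 0.0484, adjusted p 1.00 in limma).

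Nfkbia and Vcam1 had contrasts of 0.72 (SE 0.41) and 0.39 (SE 0.25), with unadjusted p-values of 0.109 and 0.141 and adjusted p-values of 1.00 in limma. Between them in rank came Il12b, below the liver filter, with a contrast in the other direction of -0.27 (SE 0.15, unadjusted p 0.112 in limma). For Icam1, Tnfaip3, Nfkbia and Vcam1 the adjusted p was 0.997 or above under every alternative other than leaving out an array. These 4 had the smallest unadjusted p of the members in liver, and the same liver values enter the contrast. No member had an unadjusted p under 0.05 in the contrast without liver knockout replicate 1, without macrophage control replicate 2 or without macrophage knockout replicate 3. Without liver control replicate 2 or without liver knockout replicate 1, 17 of 29 contrasts were above 0, where 48.9% and 45.3% of all genes were. Without macrophage knockout replicate 2, 21 were above 0 with a median of 0.14, where 53.3% of all genes were above 0 with a median of 0.01. In that fit 3 members had an unadjusted p under 0.05 in limma, where 2.40% of all genes did.

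**Figure D3:**
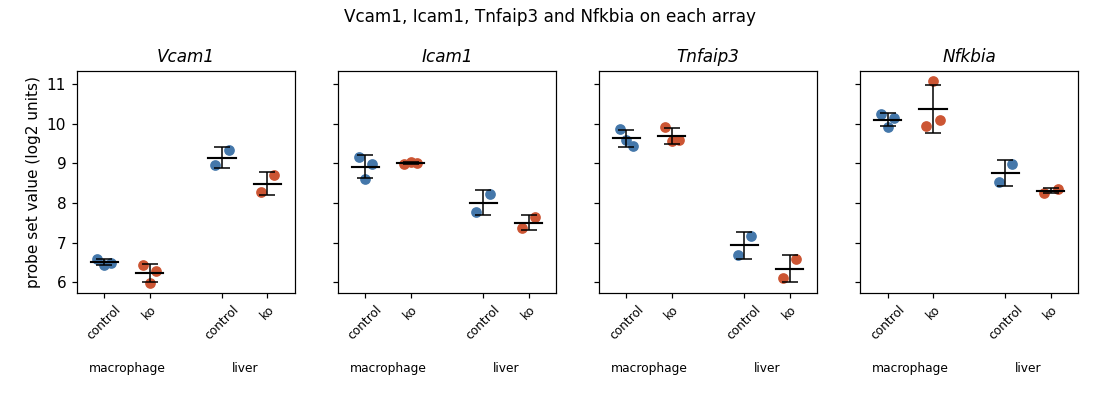
The y axis is the log2 value of Vcam1, Icam1, Tnfaip3 and Nfkbia on each macrophage and liver array, with horizontal bars at the group means and error bars of 1 SD (n = 3 per genotype in macrophages, n = 2 in liver). In liver the knockout points lie below both control points in each panel, and in macrophages the genotypes overlap in each panel.

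In aorta, 1 pool per genotype was measured, so no spread between replicates and no p-value could be had. Of the members, 14 passed the filter on dim genes, 9 higher and 5 lower in the knockout pool, where 48.5% of all genes past the filter were higher and 51.5% lower, with a median difference of 0.14 on the log2(signal + 16) scale against -0.01 over those 7098 genes. Nfkbib passed the filter only on the knockout array and Il1rn only on the control array. The 12 members past it on both arrays split 8 higher to 4 lower with the same median of 0.14. None reached a 2-fold difference, where 1.27% of genes did (62 higher and 28 lower). With the arrays scaled to their medians, 55 genes were 2-fold higher and 45 lower, and the members split 8 higher to 6 lower with a median of 0.03, against -0.11 over all genes.

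Vcam1 read higher in the knockout pool on all 3 of its probe sets. Its signal was 280 in the control and 406 in the knockout on the brightest, 68.2 and 93.4 on the second, and 51.6 and 85.0 on the third. The differences were 0.51, 0.38 and 0.58, where the liver difference of the same gene was -0.66 (log2). Icam1 read 119 and 120. Selp, the P-selectin of platelets and endothelium, read 92.6 in the control and 79.6 in the knockout, differences of -0.18 on this probe set and -0.25 on its other one.

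The inhibitors were split. Bcl3 read lower in the knockout, at 57.5 in the control and 34.8 in the knockout (-0.53). Nfkbib, the IkB beta, read 29.8 and 46.0 (0.44). Nfkbia read 1328 and 1472 (0.15), and its other 3 probe sets gave 0.13, 0.14 and -0.04. Socs3, a feedback inhibitor of cytokine receptors, gave 0.17, 0.07 and -0.20 on its 3 probe sets. Over the 12 members with several probe sets, 5 had both directions, 5 were higher on all and 2 lower on all.

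Tlr4 read 39.1 and 54.7 (0.36) on the brighter probe set and differed by -0.03 on the other. The adaptor Myd88 read 87.9 and 107 (0.25), and Birc3 read 81.97 and 99.0 (0.23). Il1rn, the single cytokine past the filter, read 44.1 in the control and 32.2 in the knockout (-0.32), and Rela read 231 and 218 (-0.08). The 16 members below the filter, Tnf, Il1b, Il6 and Tnfaip3 among them, had signals of 1.64 to 31.8 on their brightest probe sets. On these all 16 read higher in the knockout pool, as did 62.3% of the 5296 genes below the filter. The dimmer probe set of Ptgs2, also among the 16, went the other way, at 4.46 in the control and 0.95 in the knockout (-0.27).

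**Figure D4:**
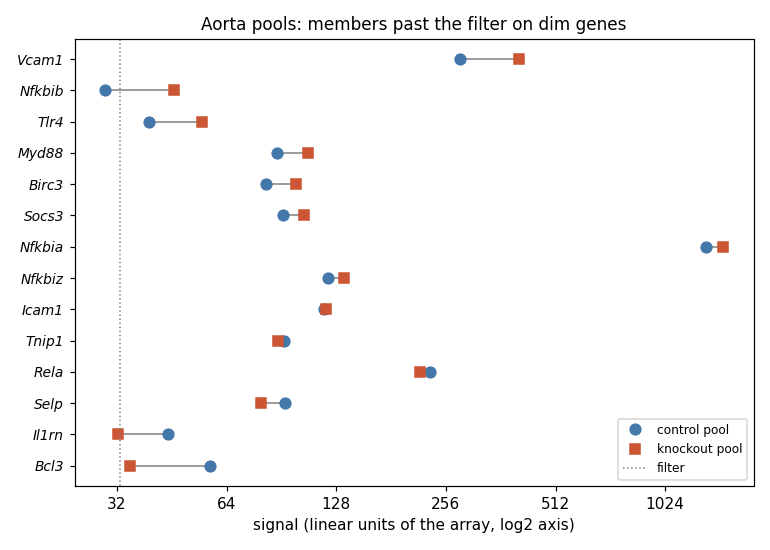
The x axis is the array signal on a log2 axis for the 14 members past the filter in aorta, with a circle for the control pool and a square for the knockout pool joined by a line, and a dotted line at the filter of 32.6. The longest lines are those of Bcl3 to the left and of Vcam1, Nfkbib and Tlr4 to the right.

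Markers of other tissues differed between the pools. The summed signal of the adrenal cortex markers was 17.6 in the control and 982 in the knockout (3 of 3 with a probe set higher), that of the B cell markers 88.3 and 628 (3 of 3 higher, Cd79a below the filter), and that of the T cell markers 21.5 and 139 (3 of 3 higher, Cd3e below the filter). The skeletal muscle markers were lower in 4 of 4, at 5979 and 3464. The endothelial markers were lower in 5 of 5, at 1211 and 973, the smooth muscle markers higher in 4 of 4, at 3548 and 4391, and the macrophage markers summed to 3631 and 3913. The part of these tissues in the members' values was not tested.

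The other genes of the pathway had medians near 0 in both replicated settings, with genes on either side. This list of 45 holds kinases, adaptors, receptors, ligands and ubiquitin enzymes outside the members, and the IkB protein gene Nfkbid. In macrophages 39 were tested, 20 higher and 19 lower with a median of 0.00, and 0 passed in limma or had an unadjusted p under 0.05. The genotypes lay apart in 1 that was higher and 0 that were lower, where 0.652% and 1.6% of all genes did. The 4 with the smallest p there were Tab2 (0.15, SE 0.08) and Tab1 (-0.18, SE 0.10), which both bind the kinase TAK1, Otulin (-0.15, SE 0.11), a deubiquitinase, and Ly96 (-0.11, SE 0.09), the co-receptor of Tlr4. In liver 39 were tested, 17 higher and 22 lower with a median of -0.02. The genotypes did not overlap in 4 that were higher and 7 that were lower, where 11.8% of all genes lay wholly higher and 18.0% wholly lower. Again 0 passed in limma or had an unadjusted p under 0.05, where 4.29% of all genes had one. There Nfkbid (0.24, SE 0.14), Il1rap (0.24, SE 0.14), Ikbkb (-0.23, SE 0.13), the IKK beta kinase, and Map3k7 (-0.21, SE 0.13), TAK1 itself, came first.

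In aorta 22 of these genes passed the filter, 13 higher and 9 lower with a median of 0.04. Ltb, the lymphotoxin beta of lymphocytes, read 43.2 in the control and 219 in the knockout pool (1.99). It was the single gene of the list past 2-fold, where 1.27% of all genes past the filter were. The B and T cell markers given above were higher in the same pool. Traf5 (0.51), Birc2 (0.43) and Ly96 (0.26) had the next differences in size.

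The immediate early genes, which respond quickly to many stimuli, were counted beside the members. In macrophages 4 of 9 were higher and 5 lower with a median of -0.04, and in liver 5 were higher and 4 lower with a median of 0.00, with 0 of them past the test in limma in either. In aorta 5 of 8 were lower with a median of -0.17, and Ier3, Dusp1 and Atf3 differed by -0.82, -0.32 and -0.31.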

How the data were processed

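Biotin-labelled RNA of 12 samples was measured on Affymetrix arrays, Mouse Gene 1.0 ST for macrophages and liver and Mouse Genome 430A 2.0 for the aorta pools. The values are those the authors deposited, and the submitters' processing notes name Affymetrix Expression Console as the tool. The sources used here give neither its version nor its algorithm. Judged from their range, the values deposited for macrophages and liver are on a log2 scale. The deposited aorta values are linear intensities with a 2% trimmed mean of 100.04 on both arrays. No scanner files were used, so background correction and depth could not be checked, and the number of arrays limits the precision.

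Genes were taken from probe sets with a single symbol, 21789 of 35557 on the macrophage and liver array and 20393 of 22690 on the aorta array. A gene's value is that of its probe set with the highest mean. Macrophages and liver were filtered at the 30th percentile of the probe set means (5.74 and 4.87 log2) and fitted with limma 3.58.1 in R 4.3.3 (lmFit and eBayes), without covariates, with Benjamini-Hochberg adjustment over all genes of the comparison and a threshold of 0.05. The contrast between tissues used the 10 arrays in 1 fit. The aorta pools were compared as log2(signal + 16) where the brighter array reached 32.6. The labels do not give the number of mice behind each macrophage or liver array, so p-values measure the spread between these samples, which may be partly technical. For macrophage genes with values identical on several arrays, the SE and p do not measure the full spread between samples. The fits were tested on simulated data.

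The members and lists were chosen with earlier results of these data known. Values on every array were given for members whose genotypes did not overlap, for the 2 of each role with the smallest p (in aorta the largest difference) and for the 6 with the largest difference per tissue. Of other lists, the 4 genes with the smallest p or largest difference were named, or 3 of the immediate early genes in aorta. Replicate numbers were not treated as pairs, since no label ties same-numbered mice together beyond their age. Deviations of same-numbered arrays correlated at 0.40, 0.03 and 0.50 in macrophages (replicates 1, 2 and 3). Replicates 1 and 3 each paired within a set of identical values, and replicate 2 across the sets. Within the sets, control replicate 2 with knockout replicate 1 gave 0.19, and control replicate 3 with knockout replicate 2 gave 0.07. Other pairs across the sets gave -0.46 to -0.13. These values cannot tell the replicate number from the sets, so they cannot check the pairing. In liver the value was 0.11 for same-numbered and -0.11 for other pairs. With 2 arrays per genotype these are a single number, so they cannot check the pairing. Alternatives were quantile normalization, other filters, the mean of probe sets or each probe set on its own, a trended prior, all 10 arrays in 1 fit, the replicate number or the sets of arrays with identical values as a block, other pseudocounts, median scaling and leaving out each array.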

Additional observations from a re-analysis of the deposited data

How the results depend on the processing

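No member passed the threshold under any alternative in macrophages, in liver or in the contrast between them. The smallest adjusted p of a member in limma was 0.568 in macrophages and 0.118 in liver, and in the contrast it was 0.901 over Vcam1, Icam1, Tnfaip3 and Nfkbia. With 2 or 3 arrays per genotype and 1 pool in aorta, small differences could not be detected. Of the 317 macrophage values under alternatives other than leaving out an array, 11 changed sign. With quantile normalization these were Il12b at 0.0023, Nfkbib at 0.012, Bcl3 at 0.012, Socs3 at 0.031 and Ptgs2 at 0.00253. With the sets of identical values as a block they were Relb at 0.0027, Socs3 at 0.055, Myd88 at 0.040 and Cd40 at -0.030. Socs3 read 0.029 as the mean of its probe sets and 0.064 on its dimmer probe set in macrophages, and 0.11 and 0.32 in liver, where these were the 2 of 215 values that changed sign. The cause was not tested. Leaving out an array changed the sign of 24 macrophage members, whose ranges were Bcl3 -0.046 to 0.00417, Birc3 -0.0299 to 0.41, Cd40 -0.0632 to 0.0561, Icam1 -0.0664 to 0.21, Il12b -0.0577 to 0.00201, Il1a -0.21 to 0.00312, Il1b -0.18 to 0.64, Il1rn -0.62 to 0.21, Myd88 -0.14 to 0.0568, Nfkb2 -0.0782 to 0.10, Nfkbia -0.0802 to 0.49, Nfkbib -0.051 to 0.0388, Nfkbie -0.11 to 0.27, Nfkbiz -0.0212 to 0.67, Nlrp3 -0.00654 to 0.36, Ptgs2 -0.0886 to 0.0855, Relb -0.17 to 0.0538, Socs3 -0.11 to 0.0968, Tlr2 -0.0842 to 0.89, Tlr4 -0.0449 to 0.17, Tnf -0.37 to 0.31, Tnfaip3 -0.0598 to 0.17, Tnip1 -0.0678 to 0.0132 and Traf1 -0.0613 to 0.14. In liver it changed the sign of 13 members, with ranges of Bcl3 -0.00783 to 0.14, Cd40 -0.0887 to 0.0704, Il1a -0.0368 to 0.25, Il1b -0.095 to 0.13, Myd88 -0.22 to 0.038, Nfkbib -0.49 to 0.0501, Ptgs2 -0.25 to 0.17, Rel -0.0621 to 0.27, Rela -0.23 to 0.18, Sele -0.57 to 0.12, Socs3 -0.25 to 0.0472, Tlr4 -0.45 to 0.0905 and Tnip1 -0.40 to 0.0522. For Vcam1, Icam1, Tnfaip3 and Nfkbia the liver ranges were -0.87 to -0.45, -0.72 to -0.28, -0.83 to -0.35 and -0.68 to -0.22.

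The count of liver genes past the threshold in limma was 1. It was 0 with quantile normalization, with no filter, with a trended prior and with all 10 arrays in 1 fit, 2 with each probe set on its own, and 0 to 36 when an array was left out (36 without knockout replicate 2). With the replicate block, which pairs same-numbered samples, it was 23 (11 higher and 12 lower), with 0 members among them and 5 members at an unadjusted p under 0.05, where 5.79% of all genes were. With the replicate block 0 genes passed in macrophages, where 201 had an unadjusted p under 0.05 against 105 without it (1 member with it and 0 without), and 0 in the contrast between tissues. That contrast gave 0 to 1 genes when an array was left out, which was chosen after seeing the data (1 without liver knockout replicate 2). The number of aorta genes past 2-fold was 90, and 169 with log2(signal + 1) and 37 with log2(signal + 64), since a larger pseudocount shrinks the differences of dim genes.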
